A study of Mus musculus with 15 samples.

Results

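Glutamate receptor and postsynaptic scaffold genes were followed as a set of 35 named genes, of 21896 protein-coding genes with a position in the RefSeq annotation of mouse assembly GRCm38.p6. The set holds 23 receptor genes (7 NMDA, 3 AMPA, 5 kainate, 1 delta and 7 metabotropic) and 12 scaffold genes (3 MAGUK, 4 SAPAP, 3 Shank and 2 Homer). A row of the deposited table is 1 cytosine of a CpG on 1 strand, with a percent methylation for each mouse. The rows inside a gene of the set or within 2 kb of its ends numbered 1676 of 455836, and 402 of them had a value in every mouse. Each gene had at least 5 rows, from 5 in Grm3 to 126 in Dlg2.

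Methylation had been measured by reduced representation bisulfite sequencing, which reads CpG-rich restriction fragments after bisulfite treatment. The tissue was dentate gyrus, micro-dissected at 7.5 months of age from C57BL/6JRj females. The 15 mice formed 3 groups of 5: a group that spent 6 months in standard cages, a group that spent 6 months in an enriched environment, and a group moved to standard cages after 3 months of enrichment and kept there for 3 months, called withdrawal here. The comparisons ask what enrichment changed and what was found after it had ended. The labels gave no litter, cage or library batch, the dissected tissue holds several cell types, and methylation within cells cannot be told apart from the share of each cell type.

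Glutamate receptors carry most of the fast excitation in the brain. NMDA, AMPA and kainate receptors are ion channels made of subunits, and metabotropic receptors signal through G proteins, group I mainly from the postsynaptic side and groups II and III mainly as brakes on transmitter release. Scaffold proteins of the MAGUK, SAPAP, Shank and Homer families form layers under the postsynaptic membrane that hold these receptors and link them to the cytoskeleton, and in the dentate gyrus they organise the input from the entorhinal cortex onto granule cells.

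RefSeq promoter sequences, which run from 250 bases before to 50 bases after a transcript start, existed for 24 of the genes in 36 entries, and 8 entries of 6 genes held measured rows, 44 in all. They are shown because they place individual measured CpGs at a transcript start. Capitals mark the CpGs with a row in the table, the sequences run 5′ to 3′ on the strand of the gene, and positions are those of GRCm38.p6, the assembly also named mm10. Dlg1, which encodes the MAGUK scaffold SAP97, has measured CpGs in neighbouring entries at chr16:31663193-31663492 and chr16:31663685-31663984, both on the plus strand. Grm2, a presynaptic group II receptor, is shown at chr9:106656060-106656359 and Gria2, the AMPA subunit that limits calcium entry, at chr3:80802786-80803085, both on the minus strand. Grin3b, a glycine-binding NMDA subunit, is shown at chr10:79970474-79970773 on the plus strand.
Dlg1 first start: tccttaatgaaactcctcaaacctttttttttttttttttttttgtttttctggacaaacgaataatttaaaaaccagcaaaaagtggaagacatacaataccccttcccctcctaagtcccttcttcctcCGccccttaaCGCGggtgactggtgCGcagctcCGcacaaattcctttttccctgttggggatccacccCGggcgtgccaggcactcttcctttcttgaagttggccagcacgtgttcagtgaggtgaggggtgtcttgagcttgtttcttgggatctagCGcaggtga
Dlg1 second start: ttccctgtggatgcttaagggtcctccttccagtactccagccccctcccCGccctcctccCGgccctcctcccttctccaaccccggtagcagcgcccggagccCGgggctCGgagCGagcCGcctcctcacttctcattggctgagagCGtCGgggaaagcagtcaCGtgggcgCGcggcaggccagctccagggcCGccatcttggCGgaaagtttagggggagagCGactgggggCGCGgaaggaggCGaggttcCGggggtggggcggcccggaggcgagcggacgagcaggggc
Grm2: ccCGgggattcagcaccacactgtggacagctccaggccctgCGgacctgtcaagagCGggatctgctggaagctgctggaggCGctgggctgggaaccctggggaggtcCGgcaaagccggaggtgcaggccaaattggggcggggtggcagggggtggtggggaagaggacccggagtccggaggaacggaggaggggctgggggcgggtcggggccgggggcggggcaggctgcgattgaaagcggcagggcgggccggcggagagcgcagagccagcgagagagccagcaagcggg
Gria2: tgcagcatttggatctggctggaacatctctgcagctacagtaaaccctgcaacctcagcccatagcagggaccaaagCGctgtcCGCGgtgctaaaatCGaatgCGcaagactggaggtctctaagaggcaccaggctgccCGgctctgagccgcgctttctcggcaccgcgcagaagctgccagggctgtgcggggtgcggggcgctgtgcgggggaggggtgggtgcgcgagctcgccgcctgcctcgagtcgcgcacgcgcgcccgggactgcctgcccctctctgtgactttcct
Grin3b: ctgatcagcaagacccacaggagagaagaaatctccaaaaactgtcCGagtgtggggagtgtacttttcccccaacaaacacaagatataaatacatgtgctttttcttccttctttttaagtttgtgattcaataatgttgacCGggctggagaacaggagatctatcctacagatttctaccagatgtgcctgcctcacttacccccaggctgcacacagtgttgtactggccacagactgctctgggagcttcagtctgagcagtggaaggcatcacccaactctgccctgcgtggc

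Of the promoters shown, the 4 with 10 CpGs or more were almost free of methylation. The second Dlg1 entry holds 27 CpGs, a number reached by 15.5% of the 32817 RefSeq promoter entries, whose median is 7, and its 18 measured rows averaged 1.73% (0 to 12.1%). The first Dlg1 entry holds 10 CpGs, a number reached by 43.4% of entries, and its 7 rows averaged 1.09%, with 3.77% as the highest row. Grm2 has 22 CpGs and a mean of 0.898% over 7 rows, and Gria2 has 26 CpGs and a mean of 0.481% over 6 rows. The 3 measured entries not shown had 1 or 2 rows each, with 9.55% in Grik2, 6.69% in Dlg4, and 23.1% and 25% at a Dlg1 start farther inside the gene with 4 CpGs.

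Grin3b differed in both respects. Its promoter holds 3 CpGs, a number reached by 76.7% of entries, and the 2 measured ones averaged 42.0% and 11.3%. At the first of these, position 79970520 on the plus strand, the standard mice had 76.0%, 52.4%, 54.5%, 32.4% and 20.7%. The 3 enriched mice with a value had 21.7%, 16.7% and 0%, and the withdrawal mice had 56.5%, 75.0%, 74.1%, 25.0% and 41.3%. Every withdrawal mouse thus lay above every enriched mouse with a value, while enriched and standard mice overlapped. This was seen after the values were read, and how many of all rows separate in this way was not counted. The row has no value in 2 enriched mice and stayed out of the main tests, and in the limma fit of rows with values in at least 3 mice of each group its adjusted p was 0.892 between enriched and standard mice and 0.922 between withdrawal and enriched mice.

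Across the set, gene ends (rows within 2 kb of either end of a gene, inside or outside it) were little methylated and gene bodies (rows inside the gene and farther than 2 kb from both ends) were not. Of the 32 genes with rows at an end, 31 averaged under 20% and 23 under 5%. The median gene end was 3.02%, and 95.9% of the 588 end rows were under 20%. In the 24 genes with promoter entries, which give the strand, 340 end rows lay on the start side and 91, in 9 genes, on the far side. Far-side means ran from 2.10% in Grin1 to 92.9% in Grm6, so the low level does not describe every far end. The median gene body was 42.5% over 32 genes, with 41.4% of the 1088 body rows under 20%, 28.6% between 20% and 80% and 30.1% above 80%. Over all protein-coding genes with rows, the median end was 4.40% and the median body 69.2%. The body exceeded the end in 27 of the 29 genes with both, by a median of 39.0 points, beside 85.8% of 7969 genes and a median of 48.5 points over the whole annotation. No test was made of the set against the other genes.

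**Figure D1:**
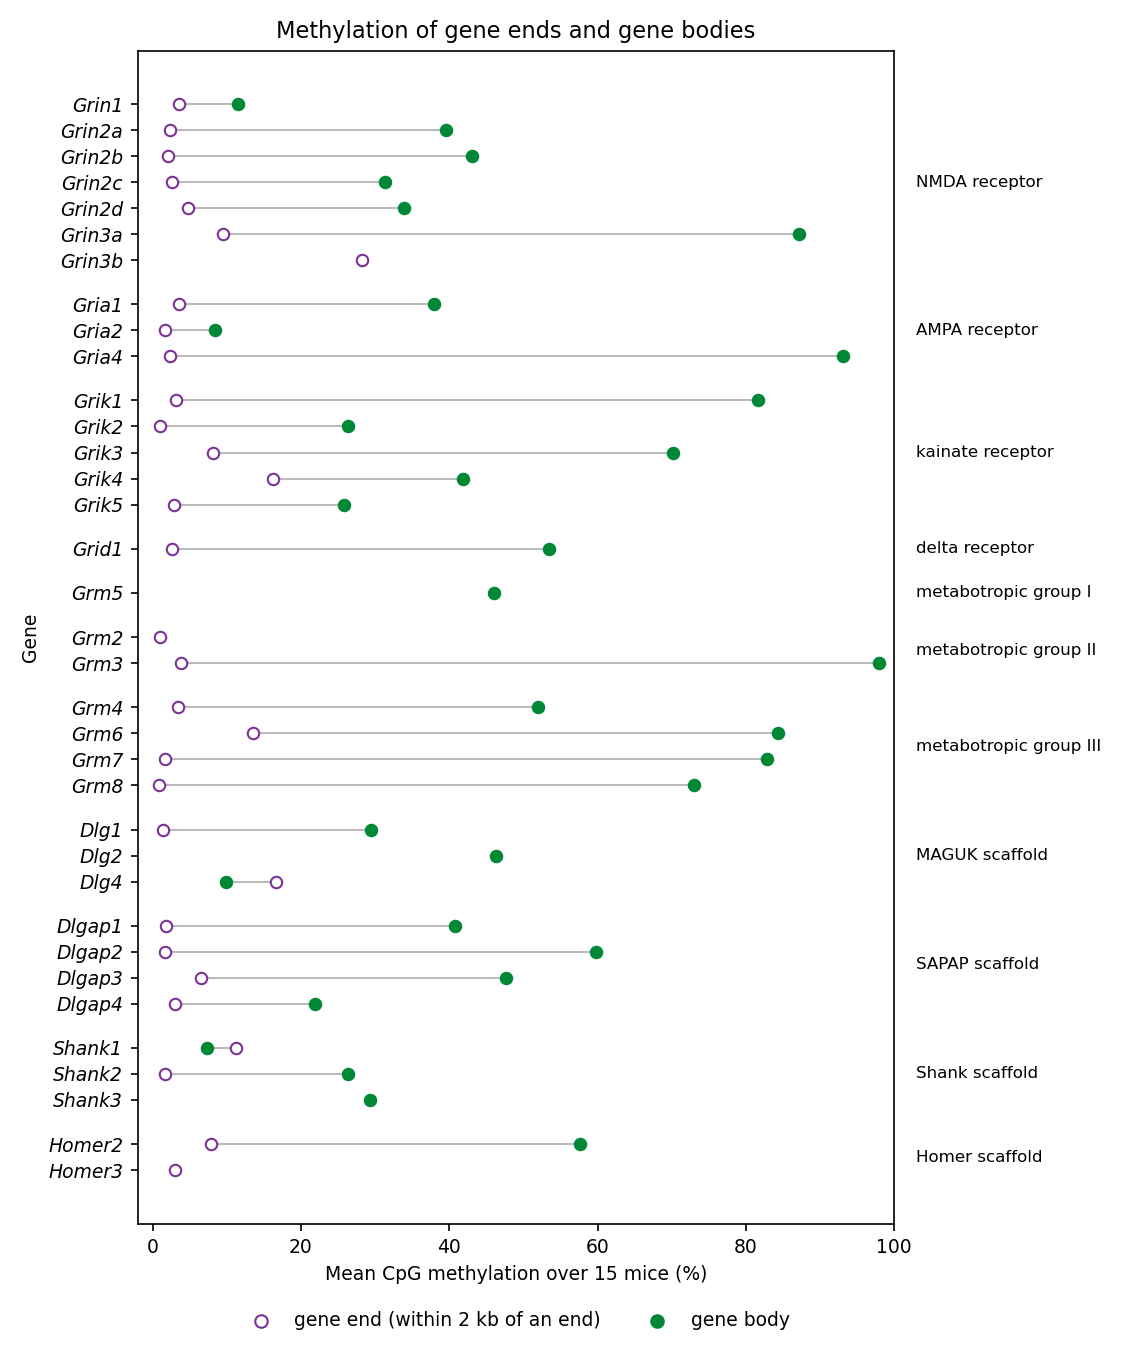
Mean CpG methylation over the 15 mice (x axis, %) of each of the 35 genes (y axis, grouped by class). Open circles are gene ends, filled circles gene bodies, and a line joins them where both had rows. Only Dlg4 and Shank1 have the end to the right of the body.

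NMDA receptor genes had low ends and bodies that ranged widely. Grin1, the subunit present in every NMDA receptor, averaged 3.59% over 22 end rows and 11.5% over 15 body rows, although 20 of its rows also lie in or near Tmem210 or Lrrc26. Its 2 end rows on the start side averaged 18.5% and its 20 far-side rows 2.10%. The glutamate-binding subunits Grin2a, Grin2b, Grin2c and Grin2d had ends of 2.40%, 2.14%, 2.58% and 4.81% and bodies of 39.6%, 43.1%, 31.3% and 33.9%. Of the 43 Grin2d rows, 16 also lie in or near Grwd1 or Kdelr1, and of the 68 Grin2c rows, 6 lie in or near Fdxr. Grin2d averaged 7.50% over 14 start-side and 2.92% over 20 far-side rows, and Grin2c 3.02% over 24 and 2.29% over 36. Grin3a, a glycine-binding subunit, had the highest NMDA body at 87.2% over 13 rows. Its end averaged 9.51% because 3 of its 33 end rows, 294 to 354 bases inside the lower-coordinate end, had 91.9% to 98.1%. Grin3b had the highest end of the set at 28.3% over 11 rows. All 11 also lie in or near Wdr18 or Tmem259, and they split into 9 rows at the start side with a mean of 16.4% and 2 at the far side with a mean of 81.8%.

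Among AMPA receptor genes the ends were close together and the bodies far apart. Gria1, the subunit most tied to activity-driven insertion at synapses, had 3.56% at its end and 38.0% in its body. Gria2 had 1.65% and 8.39%, and 24 of its 26 body rows were under 20%. Gria4 had 2.33% and 93.1%, the latter from 3 rows. None of the Gria2 rows had a value in all mice.

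Kainate receptor genes gave the most rows of any class, 316. Grik1 and Grik3, which form the channel's core, had bodies of 81.6% and 70.2%, and Grik2, another core subunit, had a body of 26.3% and one of the lowest ends, 1.03%. Grik4 and Grik5, the high-affinity subunits that need a core subunit, had bodies of 41.9% and 25.8%. The end of Grik4 averaged 16.3% over 11 rows, of which 9 near its start averaged 1.70% and 2 beyond its far end averaged 81.8%. Grik3 was split likewise, with 4.93% over 48 rows at its start side and 86.6% over 2 rows beyond its far end. Grid1, the delta receptor that binds synaptic organiser proteins, had 2.64% at its ends and 53.4% in its body.

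Metabotropic receptor genes ranged from mid-level to nearly full methylation in their bodies. Grm3, a group II receptor found in neurons and glia, had the highest body of the set, 98.0% over 4 body rows and 3.87% at its single end row. In group III, which curbs transmitter release, Grm6, Grm7 and Grm8 had bodies of 84.3%, 82.9% and 73.0%, and Grm4 had 52.0%. Grm8 had the lowest end of the set, 0.935% over 19 rows, with Grm2 next at 0.999% over 11 rows. The end of Grm6, a receptor best known from retinal bipolar cells, averaged 13.5%, with 3.57% over 16 rows at its start side and 92.9% over 2 rows at its far side. Grm5, the group I receptor that Homer binds, had no end row and a body of 46.1%, in which 9 rows were under 20%, 7 above 80% and 0 between.

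Among classes with more than 1 gene, Shank and MAGUK scaffold genes had the lowest bodies, with means of 21.0% and 28.6%. Shank1 had 7.41% over 22 body rows against 11.3% over 14 end rows, and Dlg4, which encodes PSD-95, had 9.96% over 34 body rows against 16.6% over 2 end rows. These were the only genes of the set with the end above the body. Of the Shank1 rows, 9 also lie in or near 1700008O03Rik. Shank2 and Shank3, scaffolds of the same layer, had bodies of 26.3% and 29.3%, and Dlg1 had 29.5% beside an end of 1.46% over 32 rows, the fourth lowest. Dlg2, which encodes PSD-93, had no end row and a body of 46.3% over 126 rows. The SAPAP genes Dlgap1 to Dlgap4, which link MAGUK to Shank proteins, had bodies of 40.8%, 59.8%, 47.7% and 21.9%. Homer2, which joins Shank to Grm5, had 57.6% in its body, and Homer3 had only end rows, 28 with a mean of 3.05%.

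Beyond 1 kb, mean methylation was higher in each bin farther from the nearer gene end. In every bin the rows of the set averaged less than the rows of genes at large. Rows of the set averaged 4.87% within 0.5 kb, 5.61% at 1 to 2 kb, 13.6% at 2 to 5 kb, 35.5% at 5 to 20 kb and 50% beyond 100 kb. Over all protein-coding genes these bins had 5.62%, 19.5%, 34.5%, 51.5% and 57.3%. The bin at 2 to 5 kb held 82 rows of 13 genes of the set, and neighbouring rows share a fragment, so the difference is given without a test.

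**Figure D2:**
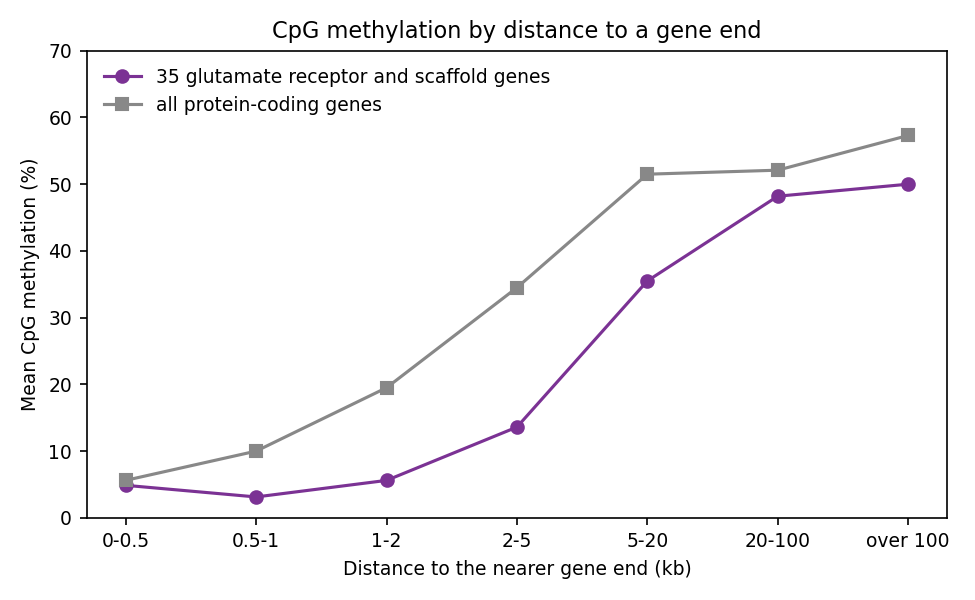
Mean CpG methylation (y axis, %) by distance to the nearer gene end (x axis, kb, unequal bins), for rows of the 35 genes (circles) and of all protein-coding genes (squares). The circles lie below the squares in every bin, with 13.6% against 34.5% at 2 to 5 kb.

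Much of the low methylation inside the genes sat in compact stretches. Counting stretches of at least 5 neighbouring body rows, all under 20% and no more than 1 kb apart, a grouping chosen after the values had been seen, there were 27 in 17 genes, with 279 of the 450 low body rows. Some lie at starts that RefSeq lists inside the annotated gene. Dlgap4 had 1.27% over 9 rows from 156721796 to 156722038 of chromosome 2, 0.952 kb from a listed start. Shank3 had 0.740% over 10 rows from 89500264 to 89500399 of chromosome 15, 0.724 kb from its listed start. Grik5 had 3.28% over 11 rows from 25071311 to 25072735 of chromosome 7, all with a value in each mouse.

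Other stretches were mostly farther from a listed start. Dlg2 had 4 on chromosome 7: 18 rows from 90887093 to 90887779 with a mean of 2.30%, 10 rows from 91091034 to 91091518 with 6.71%, 17 rows from 91262196 to 91263456 with 3.63%, and 11 rows from 91543037 to 91543381 with 2.5%. The second lies 0.490 kb from a start in the RefSeq table, and the others lie 203, 172 and 452 kb from one. Grik4 had 20 rows with a mean of 3.71% from 42897250 to 42898336 of chromosome 9, 46.6 kb from its listed start. Shank2, which has no promoter entry, had 14 rows with 3.32% from 144175078 to 144175668 and 15 rows with 1.69% from 144284044 to 144284693 of chromosome 7. Stretches above 80% by the same grouping numbered 8, in 6 genes, among them 5 rows of Grm8 with 97.5% from 27507466 to 27507531 of chromosome 6. Rows entered a low stretch by their mean over all 15 mice, so low means in each housing group follow largely from that choice. Single mice of each group still lay higher. In the Grm4 stretch a standard mouse reached 30.8% and an enriched mouse 33.6%. A standard mouse reached 33.0% in the Homer2 stretch from 81649470, and an enriched mouse 35.6% in the Dlg4 stretch from 70025797. A withdrawal mouse reached 30.2% in the Dlgap1 stretch from 70747931. The Dlg2 stretch from 90887093 averaged 2.28% ± 1.04 (SD, n = 5) in standard mice, 2.28% ± 1.08 in enriched mice and 2.62% ± 0.823 in withdrawal mice, and the one from 91262196 averaged 3.13% ± 1.29, 4.18% ± 2.09 and 3.73% ± 1.69. The Grik5 stretch averaged 3.42% ± 1.37, 3.36% ± 1.85 and 3.06% ± 1.57. Less even were the Dlg2 stretch from 91091034, with 6.60% ± 5.15, 4.59% ± 4.07 and 10.1% ± 3.51, and the one from 91543037, with 5.83% ± 9.43, 1.33% ± 0.977 and 3.29% ± 2.20. The groups overlapped in both, and the standard mean of the latter included a mouse at 22.6%. Grik2, whose stretch of 26 rows from 49782416 to 49783507 of chromosome 10 lies 5.79 kb from a listed start, had 0.783% ± 0.462, 0.556% ± 0.643 and 1.99% ± 1.40. Stretch means use whichever rows a mouse had, and no test was made of them. The promoter table is not complete, so distance from a listed start does not show that no transcript begins there.

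**Figure D3:**
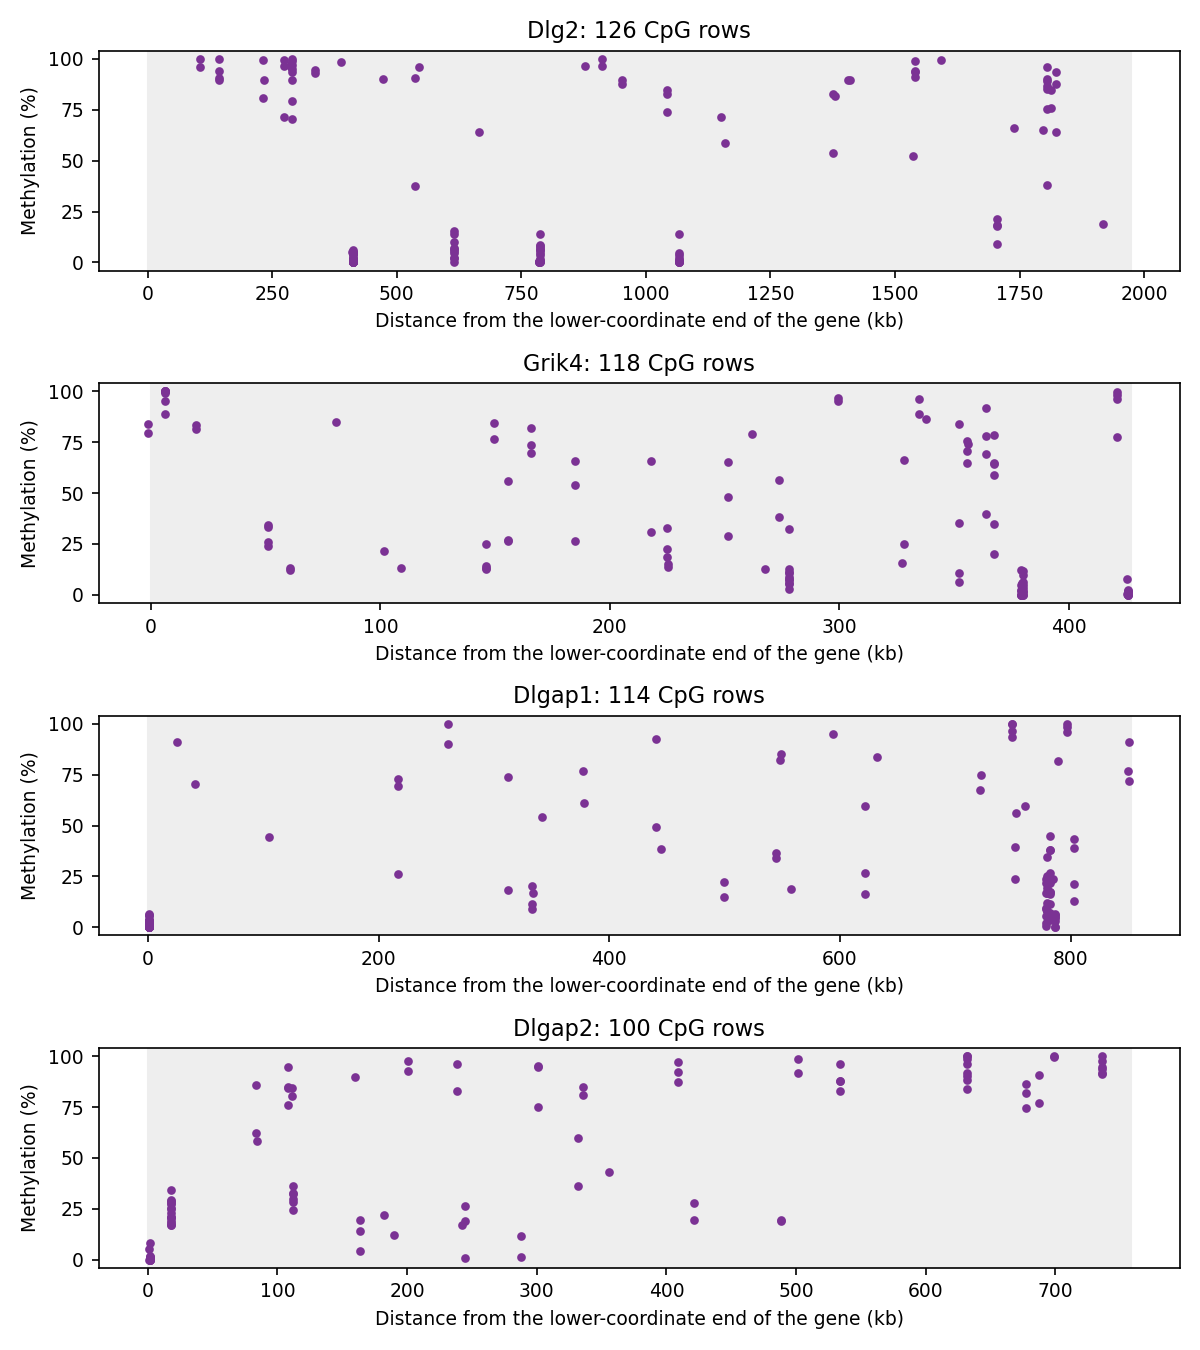
Mean methylation over mice (y axis, %) of every CpG row of Dlg2, Grik4, Dlgap1 and Dlgap2, the 4 genes with the most rows, against distance from the lower-coordinate end of the gene (x axis, kb). Grey marks the gene. Dlg2 shows 4 columns of points near 0 inside a gene whose other rows are mostly high.

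The groups were covered unequally. Rows of the set with a value numbered 1090 to 1538 in standard, 1226 to 1545 in enriched and 1429 to 1627 in withdrawal mice, and standard mouse 1 lacked 35% of them against 2.92% in withdrawal mouse 4. Tests therefore used rows with a value in all 15 mice. Dlg2, Grik4 and Grin2b gave the most of these, with 44, 43 and 36, while Grin3b, Gria2, Grm2, Grm3 and Homer3 gave 0. With at least 3 such rows required, 11 gene ends and 25 gene bodies were tested. The deposited percentages come without read counts, so the depth behind each value is unknown.

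Averaged over the tested genes, methylation was alike in the 3 groups within the spread between mice. The 11 gene ends averaged 8.52% ± 1.10 (SD, n = 5) in the standard group, 8.19% ± 0.995 in the enriched group and 7.67% ± 1.62 in the withdrawal group. The 25 gene bodies averaged 47.9% ± 1.52, 48.3% ± 2.36 and 47.6% ± 0.839. All 5344 gene ends tested averaged 13.8%, 14.0% and 14.2%, and all 4001 gene bodies 56.6%, 56.9% and 57.4%. The mice of the groups overlapped for both averages.

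By class, the body means differed little between the groups, and the end means rested on few genes. Kainate receptor bodies, from 5 genes, averaged 53.9% ± 2.32 (SD, n = 5), 53.2% ± 3.36 and 53.3% ± 2.44 in standard, enriched and withdrawal mice, and SAPAP bodies, from 4 genes, averaged 40.4% ± 1.01, 38.4% ± 2.96 and 39.0% ± 1.49. NMDA receptor bodies averaged 44.7% ± 4.13, 47.2% ± 2.96 and 44.0% ± 1.73. MAGUK ends averaged 8.61% ± 8.56, 18.0% ± 6.23 and 15.8% ± 5.53, values set mainly by 1 row at the far end of Dlg4, where standard mice had 7.69%, 5.13%, 0%, 40.4% and 25.9% and enriched mice had 31.6%, 50%, 17.1%, 34.1% and 35%. The standard mice at that row ran from 0% to 40.4% and overlapped the enriched mice, and a single row was below the minimum for a test.

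**Figure D4:**
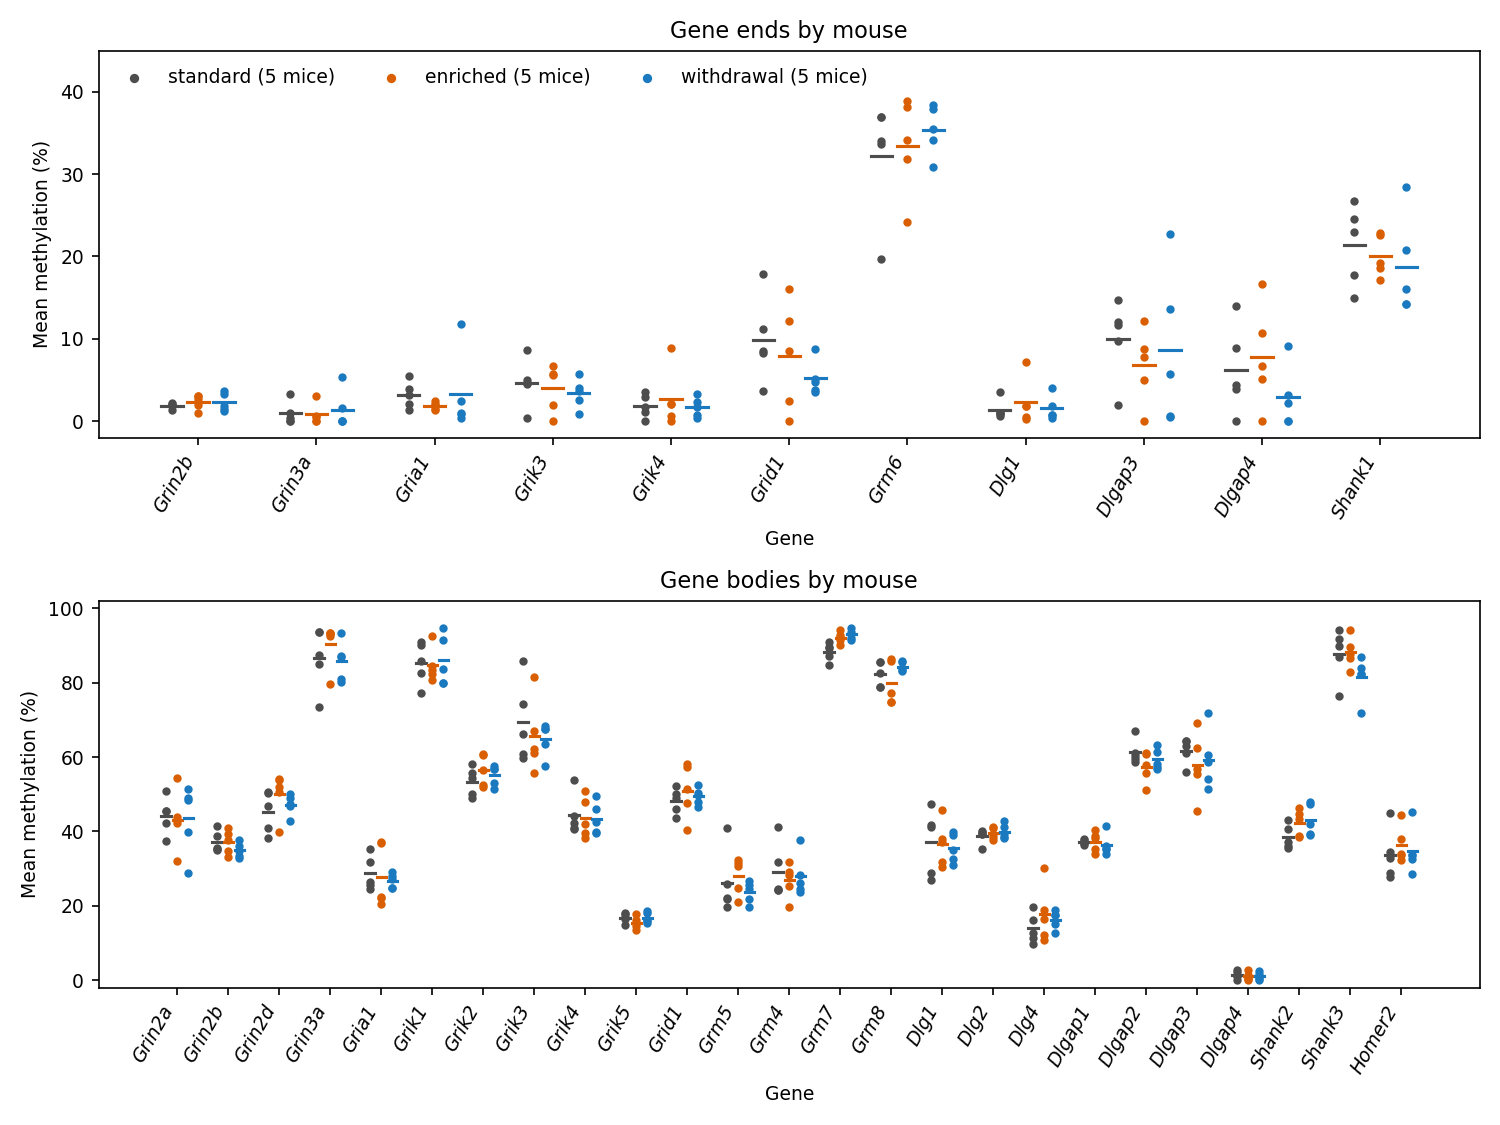
Mean methylation (y axis, %) of the 11 gene ends (top) and 25 gene bodies (bottom) tested, by gene (x axis). Each point is a mouse, coloured by housing group, and bars are group means of 5 mice. Genes differ far more than groups, and Grm7 is the body whose withdrawal mice all lie above the standard mice. How often this occurs over all bodies was not counted.

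No gene of the set passed the test at any level. limma called 0 of the 364 CpG sites, 0 of the 56 windows of 1 kb, 0 of the 11 gene ends and 0 of the 25 gene bodies of the set at an adjusted p under 0.05, whichever of the 3 comparisons was made. An unadjusted p under 0.05 was reached by 15, 14 and 20 sites in enriched against standard, withdrawal against standard and withdrawal against enriched, or 4.12%, 3.85% and 5.49%. Over all 100562 sites tested, 0% were called in each comparison and 5.15%, 4.42% and 4.30% had such a p. For windows the counts were 1, 2 and 6, beside 0% called and 5.71%, 4.80% and 4.39% of 15677 with such a p. For gene ends they were 0, 0 and 0, beside 0% called and 5.60%, 5.05% and 5.30% of 5344. For gene bodies they were 1, 1 and 0, beside 0.05%, 0% and 0% called and 6.25%, 4.95% and 3.97% of 4001 with such a p.

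The share of windows for withdrawal against enriched, 10.7%, stood above its background, and the other shares were near or below theirs. That count of 6 became 1 without withdrawal mouse 3, 2 without withdrawal mouse 2, and 3 without withdrawal mouse 1 or enriched mouse 2. It became 7 without standard mouse 5 or enriched mouse 5. For sites, the count of 15 became 24, 23 and 26 without standard mouse 1, 3 and 5, and 11 without enriched mouse 1. The count of 14 became 7 without withdrawal mouse 5 and 20 without standard mouse 3. The count of 20 became 12 without withdrawal mouse 3 and 26 without enriched mouse 3. The other window counts ranged from 1 to 5 and from 1 to 4 over the fits without 1 mouse, with the highest without enriched mouse 5 and withdrawal mouse 2, and the end and body counts stayed between 0 and 2.

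Directions were close to the background at sites and less so for larger features. Of the sites, 51.6%, 49.7% and 50.5% were higher in the first-named group of the 3 comparisons, beside 49.2%, 51.9% and 51.0% of all sites. Of the windows, 50%, 50% and 42.9% were higher, beside 51.0%, 54.2% and 52.8%, and of the gene ends 45.5%, 45.5% and 36.4%, beside 49.9%, 53.7% and 52.6%. Of the gene bodies, 48.0%, 44.0% and 44.0% were higher, beside 52.5%, 58.3% and 55.4%. The median difference of the bodies for withdrawal against standard was -0.711 points, beside 0.536 points over all bodies, and for withdrawal against enriched -0.643 beside 0.378. The median absolute difference of the sites was 4.30, 3.14 and 4.12 points, beside 3.76, 3.54 and 3.47, and that of the windows for withdrawal against enriched was 2.82 beside 1.71. These values describe 11 ends and 25 bodies, and none was tested against the other genes. Counted by gene, sites reaching an unadjusted p under 0.05 lay in 7, 7 and 11 genes of the set. Dlgap1 held 4 of the 15 for enriched against standard, Dlg2 and Dlgap2 held 3 each of the 14 for withdrawal against standard, and Grin2b held 4 of the 20 for withdrawal against enriched.

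Grm7, a presynaptic group III receptor, had the gene body with the smallest p. Its 5 sites averaged 89.6%, 89.2%, 84.8%, 87.1% and 90.9% in the standard mice, 92.2%, 91.4%, 90.2%, 92.7% and 94.1% in the enriched mice and 93.6%, 91.6%, 94.8%, 93.2% and 92.0% in the withdrawal mice. The lowest withdrawal mouse was above the highest standard mouse, as were 4 of 5 enriched mice. The body was picked by its small p, and how many of all bodies separate in this way was not counted. The group means were 88.3% ± 2.40 (SD, n = 5), 92.1% ± 1.45 and 93.0% ± 1.28, which differ from standard by 3.77 and 4.69 points, and the limma adjusted p was 0.766 and 0.769. The difference was uneven along the gene: at position 110838192 of chromosome 6 standard mice averaged 83.5% and withdrawal mice 94.9%, while at 110987819 they averaged 95.7% and 95.6%.

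The genes that lead their class in the number of complete sites had bodies whose groups overlapped, at levels that differed little for those with the most sites. Dlg2, from 44 sites, averaged 38.8% ± 1.95 (SD, n = 5) under standard housing, 39.5% ± 1.51 under enrichment and 40.0% ± 1.89 after withdrawal. Grik4, from 38 sites, averaged 44.4% ± 5.52, 43.6% ± 5.48 and 43.5% ± 4.28 in the same order, and Dlgap1, from 33 sites, 37.2% ± 0.668, 37.3% ± 2.69 and 36.4% ± 2.97. Grin2b, from 16 sites, averaged 37.2% ± 2.78, 37.2% ± 3.15 and 34.9% ± 1.97. For each of these 4 bodies the 3 group means lay within 3 points of each other, and the widest spread among them belonged to Grik4. Grid1 averaged 48.1% ± 3.33, 51.0% ± 7.34 and 49.4% ± 2.20, Homer2 33.8% ± 6.81, 36.4% ± 5.0 and 34.7% ± 6.20, and Grm5 26.1% ± 8.52, 28.1% ± 4.89 and 23.7% ± 2.86. Gria1 averaged 28.8% ± 4.63, 27.8% ± 8.48 and 26.8% ± 1.95, and Grm8, which leads group III, is described with the bodies of smallest p. The limma adjusted p was 0.938 or more for each of these bodies in every comparison.

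The other gene bodies with the smallest p had overlapping groups throughout. Dlgap2 averaged 61.3% ± 3.34 in standard and 57.4% ± 4.15 in enriched mice over 23 sites (limma adjusted p 0.880). The 3 sites of Shank3 had group means of 87.8% ± 6.94, 88.2% ± 4.08 and 81.5% ± 5.69 for standard, enriched and withdrawal mice (withdrawal: limma adjusted p 0.993 against standard and 0.997 against enriched). At 1 of those sites, 89527161 of chromosome 15, the withdrawal mean was 67.5% and the standard mean 85.5%, and at the other 2 the group means differed by less than 1 point between withdrawal and standard. Over 15 sites, Grm8 averaged 84.3% ± 1.21 after withdrawal against 79.8% ± 5.77 under enrichment (limma adjusted p 0.997), a difference of 4.55 points that was 0.247 points once rows lacking a value in some mice were let in.

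Among gene ends the smallest p belonged to Grid1, Gria1, Dlgap4 and Shank1, and each of these had overlapping groups. Grid1 ends, from 3 sites, had 17.9%, 8.33%, 3.62%, 8.51% and 11.2% in standard, 0%, 2.47%, 8.56%, 16.1% and 12.2% in enriched and 3.50%, 4.76%, 5.13%, 8.75% and 3.80% in withdrawal mice. The withdrawal mice were the tightest group and the enriched mice the widest, and the limma adjusted p was 0.918 for enriched and 0.942 for withdrawal against standard. Without standard mouse 1 the difference between enriched and standard was -0.0604 points in place of -2.07. Gria1 averaged 3.18% ± 1.60 in standard and 1.86% ± 0.453 in enriched mice (SD, n = 5, limma adjusted p 0.924). For withdrawal against enriched, Dlgap4 averaged 2.89% ± 3.73 against 7.84% ± 6.25 (limma adjusted p 0.964), and Shank1 18.7% ± 6.05 against 20.1% ± 2.55 (limma adjusted p 0.980). The Dlgap4 difference was -0.0352 points when such incomplete rows were let in, and the Shank1 difference -0.196 points without withdrawal mouse 3.

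Grin2b, the NMDA subunit prominent in the young brain, held windows among those with the smallest p in each comparison. In a window 74.9 kb inside the gene, 3 sites from 135788033 to 135788101 of chromosome 6 averaged 59.5%, 52.4%, 66.5%, 55.4% and 68.1% in standard mice. The enriched mice had 51.2%, 44.4%, 35.7%, 50% and 66.7%, and the withdrawal mice had 35.5%, 49.2%, 39.9%, 40.8% and 49.0%. Withdrawal and standard mice did not overlap, enriched mice spanned both, and the difference of -17.5 points had a limma adjusted p of 0.995. The window was picked by its small p, and how many of all windows separate in this way was not counted. At each of the 3 sites the withdrawal mean was below the standard mean, 0.690% against 18.2%, 72.0% against 88.5% and 56.0% against 74.5%. The other Grin2b window, 0.364 kb from a gene end, had group means of 3.18% ± 1.09 (SD, n = 5), 1.31% ± 0.545 and 3.59% ± 1.8 for standard, enriched and withdrawal mice over 5 sites. Nearly all of it came from the site at 136173231, with 15.6%, 5.98% and 17.4%, since the other 4 sites averaged under 1% in every group. The limma adjusted p of this window was 0.868 between enriched and standard mice and 0.999 between withdrawal and enriched mice.

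Windows in Grik4, Grm8 and Dlgap2 had the remaining small p. The Grik4 window, 175 kb inside the gene with sites from 42769739 to 42769808 of chromosome 9, averaged 55.4% ± 11.5 in standard and 37.4% ± 7.65 in withdrawal mice (SD, n = 5, limma adjusted p 0.995). The Grm8 window, 192 kb inside the gene with sites from 27943094 to 27943164 of chromosome 6, had 63.3%, 65.0%, 57.4%, 94.0% and 94.6% in enriched and 89.8%, 100%, 95.6%, 93.2% and 100% in withdrawal mice. The enriched mice had 3 low and 2 high values, the high ones inside the withdrawal range, and the limma adjusted p was 0.999. The Dlgap2 window, 301 kb inside the gene with sites from 14396338 to 14396391 of chromosome 8, averaged 95.1% ± 9.74 in standard and 82.8% ± 6.28 in enriched mice (limma adjusted p 0.808).

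In both comparisons with the withdrawal mice the site with the smallest p was in Dlg2, inside the unmethylated stretch that begins at 90887093. The site at 90887179 on the minus strand had 0%, 0%, 4%, 0% and 0% in standard, 0% in all 5 enriched, and 12.1%, 10%, 0%, 16% and 16.7% in withdrawal mice. Methylation above 0 was thus seen in 4 of 5 withdrawal mice and in 1 of the other 10, and the limma adjusted p was 0.874 against standard and 0.876 against enriched. Without withdrawal mouse 3, the withdrawal mouse at 0%, the site passed in both comparisons, with differences of 12.9 and 13.7 points and limma adjusted p of 0.0496 and 0.0448, in fits that called 0.0109% and 0.00597% of all sites. With both strands of each CpG averaged, the differences were 6.43 and 5.53 points. The opposite strand of the same CpG, at 90887178, averaged 2.92%, 5.52% and 5.61% and was above 0% in 1 standard, 1 enriched and 4 withdrawal mice, and the site 27 bases away on the minus strand was at 0% in all mice.

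A different Dlg2 site was called when only the enriched and withdrawal mice entered the fit. Named because of that call, after its values were seen, it lies at 90708686 on the plus strand and had 98.3%, 100%, 100%, 100% and 100% in enriched mice. The withdrawal mice had 85.3%, 84.1%, 76.9%, 89.4% and 83.6%, below every enriched mouse, and the limma adjusted p was 0.0460 in a fit that called 0.00597% of all sites. The standard mice had 100%, 69.2%, 58.6%, 100% and 100%, which spans both groups. How many of all sites separate withdrawal from enriched mice was not counted. These were the only calls in the set under the alternative settings tried.

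The remaining sites with the smallest p had limma adjusted p of 0.851 or more. At 14113694 of chromosome 8, in Dlgap2 and 17.9 kb from its nearer end, standard mice had 0%, 4.35%, 17.6%, 0% and 16.3%, enriched mice 27.3%, 0%, 33.9%, 33.8% and 25.5%, and withdrawal mice 30.4%, 26.4%, 32.1%, 32.6% and 27.0%. All withdrawal mice and 4 of 5 enriched mice lay above all standard mice. The site was picked by its small p, and how many of all sites separate in this way was not counted. Its neighbour 19 bases away on the same strand had group means of 7.26%, 17.8% and 26.0%, the one 34 bases away had 30%, 32.3% and 40.6%, and the one 73 bases away had 33.1%, 21.5% and 33.6%. At 42569265 of chromosome 9, in Grik4, standard mice had 66.7%, 85.7%, 28.4%, 28.6% and 11.3% and enriched mice 4.55%, 26.1%, 13.3%, 0% and 15.7%, overlapping at the lowest standard mouse. The site 3 bases away showed 35.8% in standard and 13.1% in enriched mice. At 70281015 of chromosome 17, in Dlgap1, 4 enriched mice were at 100% and 1 at 60%, against 45.5%, 95.7%, 50%, 40.0% and 64.7% in standard mice. At 92015571 of chromosome 7, in Dlg2, withdrawal mice had 96.6% to 100% and enriched mice 70.1% to 100%. The site 6 bases away averaged 100% in withdrawal and 97.9% in enriched mice.

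**Figure D5:**
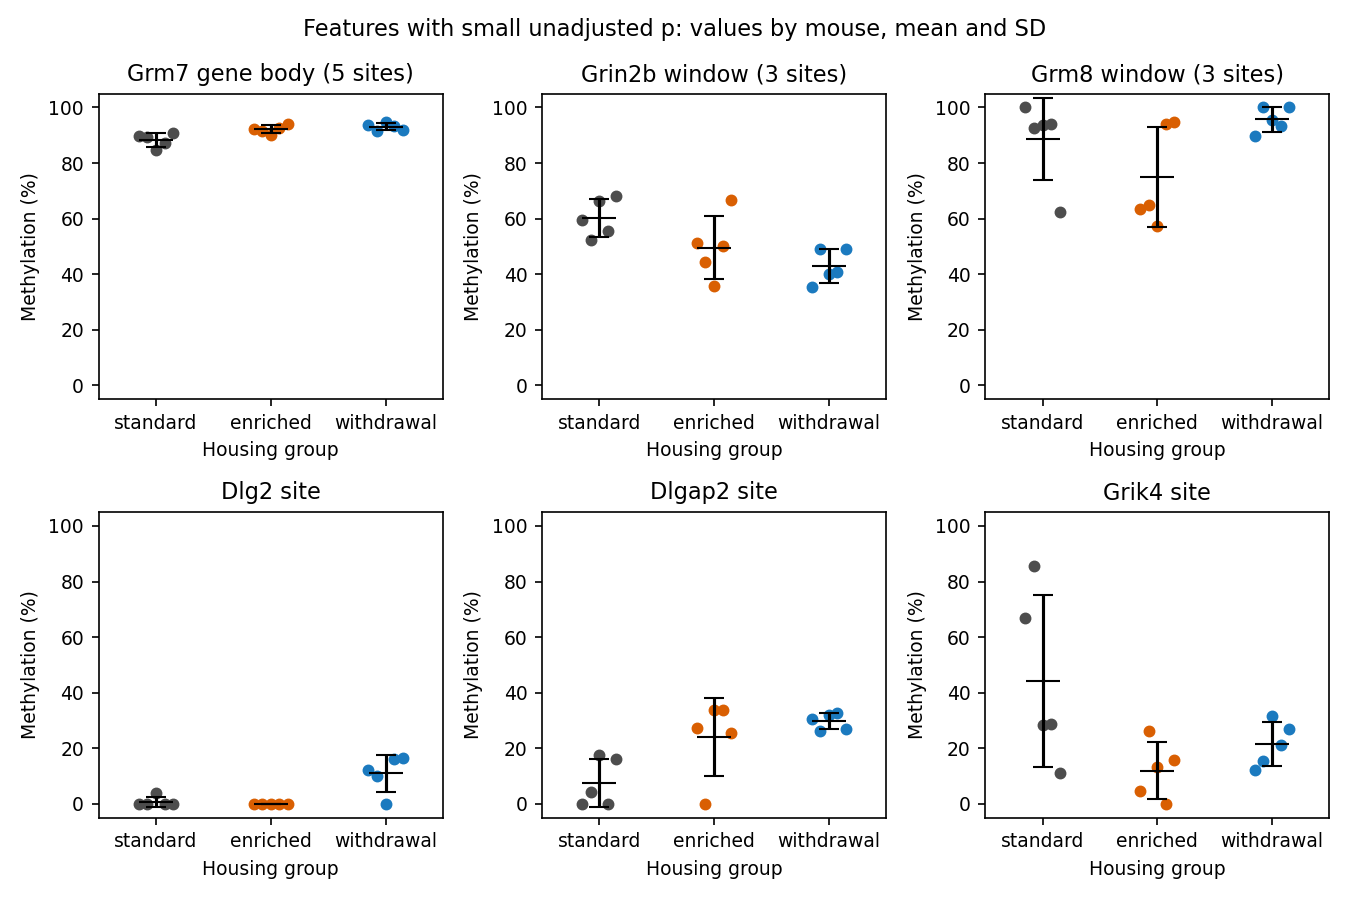
Methylation (y axis, %) of 6 features named by small p, by housing group (x axis). Points are the 5 mice of a group, and black marks are the mean and SD. Withdrawal and standard mice do not overlap for the Grm7 body, the Grin2b window and the Dlgap2 site at 14113694, and 1 withdrawal mouse is at 0% at the Dlg2 site. The features were picked by small p, and non-overlap was not counted over all features.

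The spread between mice of 1 group was read gene by gene and not tested against other genes. The pooled SD within groups had a median of 2.94 points over the 11 gene ends and 5.13 points over the 25 bodies, beside 2.48 and 4.85 points over all gene ends and bodies tested. Among ends it was highest for the SAPAP gene Dlgap3 (6.70 points), Grm6 (5.67) and Dlgap4 (5.22). Among bodies it was highest for Grik3 (8.86), Grin2a (7.63) and Dlgap3 (7.09), each measured at 8 sites or fewer. Dlg2, with 44 sites, had 1.79 points. The ends most alike over the 15 mice were Gria1 and Dlgap3 (Pearson r 0.66) and Grin3a and Grik4 (r 0.54), the highest of 55 pairs, as a description only. Both of the first pair had their highest value in withdrawal mouse 5, at 11.8% and 22.7%, and values of a mouse share 1 library.

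Other genes of the glutamate synapse were read from a list of 34: family members outside the set, auxiliary subunits of the receptors, postsynaptic signalling proteins and vesicular glutamate transporters. Their median end was 4.14% over 29 genes and their median body 41.1% over 32. limma called 0 of 9 gene ends and 0 of 14 gene bodies, whichever groups were compared. No end had an unadjusted p under 0.05 (0, 0 and 0 of 9). In both comparisons against standard 1 body had one, beside 6.25% and 4.95% of all 4001 bodies. That body was Gria3, the X-linked AMPA subunit outside the set, with 83.9% over 3 sites and differences of 11.5 and 13.0 points from standard (limma adjusted p 0.766 and 0.974). Auxiliary subunits ranged from 4.53% in the body of Shisa7 to 95.2% in that of Cacng5.

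Gene ends of cell type markers were read as methylation, which is not expression. The granule neuron markers Prox1, C1ql2 and Dsp had 1.21%, 2.79% and 13.6%, and Calb1 had no end row. The oligodendrocyte list (3 of 5 genes with rows) ranged from 3.52% to 27.8%, the astrocyte list (2 of 4) from 1.22% to 34.6% and the other hippocampal neuron list (3 of 3) from 6.24% to 40.8%. The interneuron list (3 of 3) ranged from 2.68% to 5.01%, the microglia list (2 of 4) from 24.7% to 95.7%, and the endothelial list (3 of 3) from 3.58% to 71.5%. Of 10 marker ends tested, limma called 0. Over all 5344 gene ends, 5.60%, 5.05% and 5.30% had an unadjusted p under 0.05 in the 3 comparisons. The 1 granule neuron end tested had an unadjusted p under 0.05 in both comparisons against standard, with group means of 4.36% ± 2.03 (SD, n = 5) for standard, 1.03% ± 0.709 for enriched and 1.48% ± 1.20 for withdrawal mice. For withdrawal against enriched there was 1 interneuron end and 1 oligodendrocyte end, the latter with 10.8% ± 9.23 against 1.64% ± 2.79. Their part in the values of the set was not tested.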

How the data were processed

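Percent methylation per cytosine and strand was deposited by the authors in 1 table with a column for each of the 15 mice, with no read counts and no header naming a coverage minimum, so the depth is unknown and no counting interval could be given. Per the submitters' processing notes, Trim Galore 0.4.0, cutadapt 1.8.1, Bismark 0.16.1, methylKit 1.5.2 and mm10 were used, with roles and filters not given in the sources used here. Groups came from the housing labels. CpG values come only from rows before the chromosome column restarts: where RefSeq promoter sequence covers them, 47278 of 47278 (100.0%) lie on CG, and 0 of 134806 later rows do.

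Levels are means over rows and mice. Tests used rows with a value in all 15 mice. Single sites needed a range of at least 5 points, and windows of 1 kb, gene ends and gene bodies needed at least 3 sites. Percentages p became log2((p + 5)/(100 - p + 5)). limma 3.58.1 in R 4.3.3 fitted the 3 groups of 5 mice together with a variance that followed the mean, and the Benjamini-Hochberg adjustment of its two-sided p-values ran over the whole table, separately for sites, windows, ends and bodies. Calls needed an adjusted p below 0.05. The fit was tested on simulated data.

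The genes of the set and all lists were chosen with earlier results of these data known. The text names, for each comparison, the 2 gene ends, gene bodies, windows and sites of the set with the smallest p, the highest and lowest ends and the lowest bodies, the largest spreads, the genes with most or no complete sites, and in each class the gene with most. Features picked by small p tend to separate the groups. The share of all features whose groups did not overlap was not counted. Alternatives were another offset, the percent scale, incomplete rows, no range filter, merged strands, no variance trend, only the 2 groups compared, a replicate block, ends of 1 kb, other site minimums, equal weight for sites and leaving out each mouse. The labels number the mice in each group, and the deviations of same-numbered mice from their group means correlated at -0.0421 to 0.0695 over 60 comparisons. The mice were therefore treated as unpaired. With values of unknown depth, such correlations cannot exclude that equal numbers mark a pairing. The p-values set group differences against the spread between mice taken as independent. Nothing shows which mice shared a litter or cage, so that independence could not be checked.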

Additional observations from a re-analysis of the deposited data

Results flagged for a closer look

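Groups of 5 mice were examined, 1 for each gene end or body of the set and housing group. Of these 108, 11 held a mouse whose gap to the nearest other was over 0.71 of the whole range. For normally distributed values chance flags about 1 in 20. Gene ends near 0% need not follow that rate, so the 11 flags do not show an excess of outlying mice. Among gene ends, enriched mouse 1 stood above the others for Grin3a, at 3.05% against 0 to 0.668%, and for Grik4, at 8.93% against 0 to 2.11%. Withdrawal mouse 5 had 11.8% at Gria1 ends against 0.322% to 2.44%. At Dlg1 ends, standard mouse 5 had 3.49% against 0.583% to 1.03%, and enriched mouse 4 had 7.14% against 0.250% to 1.86%. Standard mouse 2 was low at Grm6 ends, with 19.7% against 33.7% to 37.0%.

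Among gene bodies, enriched mouse 3 was low for Grin2d, with 39.9% against 50.5% to 54.2%, and for Grin3a, with 79.6% against 92.5% to 93.4%. Standard mouse 5 was high for Grik4, with 53.9% against 40.6% to 44.2%, and for Grm5, with 40.8% against 19.8% to 25.8%. Standard mouse 2 was low for Dlg2, with 35.3% against 39.2% to 40.1% over 44 sites. Causes were not tested.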

How the results depend on the processing

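The count of genes, windows or sites of the set called stayed at 0 in 288 of 291 recomputed counts. At single sites it became 1 for withdrawal against enriched with only the mice of the 2 groups compared, and between 0 and 1 over the fits without 1 mouse in both comparisons with the withdrawal group, the 1 coming from leaving out withdrawal mouse 3. With a replicate block, although the labels do not say that the numbers pair the mice, the count stayed 0 at every level. Of 567 recomputed differences of named features, 562 kept direction and side, though not always their size (Grid1, Dlgap4, Shank1 and Grm8), 2 were the Dlg2 site at 90887179 passing without withdrawal mouse 3, and 3 turned direction, all when rows lacking a value in some mice were let in, with at least 3 mice of every group required: Gria1 ends at 0.0587 points and Dlgap2 bodies at 0.202 points for enriched against standard, and Shank3 bodies at 2.67 points for withdrawal against enriched. Mean levels moved with which rows entered. Gene ends in standard, enriched and withdrawal mice averaged 5.64%, 4.93% and 5.26% with those rows let in, 3.73%, 2.75% and 3.47% within 1 kb, and with every site equal 6.78% and 6.61% in the first 2 groups, while merged strands gave 6.92% in enriched mice. Gene bodies averaged 44.0%, 44.1% and 43.9% with every site equal, and 45.7% in standard and 45.4% in withdrawal mice beyond 1 kb. The cause of each shift was not tested beyond the change of rows itself. Unknown depth limits what single sites can show.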

Other observations

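Rows after the restart of the chromosome column, none of which lies on CG in the promoter sequences covering them, were read as non-CpG cytosines. In the bodies of 27 genes of the set they had group means of 0.902% ± 0.0409 (SD, n = 5), 0.822% ± 0.0659 and 0.814% ± 0.0890 for standard, enriched and withdrawal mice over 1929 positions, beside 0.928%, 0.915% and 0.919% over all gene bodies. The mice of the 3 groups overlapped, at 0.861% to 0.968%, 0.747% to 0.892% and 0.726% to 0.943%. Among bodies with at least 50 such positions, Dlg1 was highest at 2.41% over 56 positions, Grm4 had 1.23% over 63, Shank2 had 1.02% over 78, and Dlgap1 was lowest at 0.509% over 182. Any cytosine that bisulfite left unconverted is counted in these values.

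At gene ends of 17 genes the non-CpG means of these groups were 0.478% ± 0.0449, 0.640% ± 0.242 and 0.597% ± 0.205 (SD, n = 5) over 365 positions. Individual enriched mice ran from 0.445% to 0.971% and withdrawal mice from 0.387% to 0.812%, against 0.405% to 0.520% in standard mice.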
